A study of Mus musculus with 16 samples.

Results

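The cytosolic ribosomal protein genes were followed through mouse liver RNA from a study of alcohol feeding and the liver-specific loss of Zfp36l1. Members were the protein-coding genes named Rpl or Rps with a number, together with Rplp0, Rplp1, Rplp2 and Rpsa. Kinases of the Rps6k family were left out, as were 2 matching genes annotated as pseudogenes, Rps4l and Rpl6l. This gave 80 genes of 35275 in the table, 49 of the large and 31 of the small ribosomal subunit. Genes kept in the analysis were those with at least 1 FPKM in at least 4 of the 16 libraries, and 76 of the 80 passed this filter. FPKM values correct the fragment count for gene length and library size, so levels of different genes are compared per length.

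The 4 groups held 4 libraries each. The WT mice carried a normal Zfp36l1 gene, and the LKO mice lacked it in liver only. Each genotype was fed a control diet or a diet with ethanol. The sources used here do not give the promoter of the Cre driver, sex, age, strain, diet composition or feeding time, and do not say that each library came from a separate animal, so p-values measure only the spread between these libraries.

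The ribosome is built from a small and a large subunit, each a scaffold of ribosomal RNA that carries a large set of proteins, most of them present in a single copy. Liver cells that secrete plasma proteins depend heavily on it, and messenger RNAs for its proteins are among the most abundant in the cell. Most of these messengers begin with a C followed by a stretch of pyrimidines, the terminal oligopyrimidine (TOP) motif, through which mTORC1 and the RNA-binding protein LARP1 regulate their translation and stability.

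Total reads per library were 19069903 to 24768569 in 15 libraries and 9890475 in WT ethanol library 2. That library stood apart: the mitochondrial genome gave 22.5% of its reads and 3.64 to 6.97% of those of any other library. Results that rest on it are given with and without it. The libraries also divided within groups. Over the kept genes that are not members, the leading component of within-group variation held 39.9% of the variance over 15 libraries. It separated libraries 1 and 2 of each group from libraries 3 and 4, with WT ethanol library 2 not among the 15. In fits of all 16 libraries with a term for this division, that library was placed with libraries 1 and 2. The placing came from the component over 16 libraries, where that library stood at 113.8 and WT ethanol library 1 at −16.07. The labels name no batch. Zfp36l1 measured 9.3 to 25.54 FPKM in the 8 WT libraries and 0.572 to 1.76 FPKM in the 8 LKO libraries. All 6 hepatocyte markers examined (Alb, Ttr, Apoa1, Serpina1a, Cps1, Hnf4a) were above 0.5 FPKM in at least 1 library, with a summed level of 42580 to 73120 FPKM in 15 libraries.

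The TOP motif was looked for in the RefSeq promoters of mouse build GRCm38.p6, which matched 60 of the 80 members by symbol. The search was on the sense strand for a C within 5 bases of the annotated start that was followed by at least 4 further C or T. Of the 60 members, 28 held such a run (46.7%, 95% Wilson interval 34.6 to 59.1%), against 21.2% of 27025 genes with a promoter in the table. With at least 7 further pyrimidines, 20 members held it (33.3%), against 5.17% of all genes. In 13 members the C was the annotated start itself. The windows below reach from 10 bases before the annotated start to 20 bases from it. They are shown for some of the genes at the extremes of the comparisons that follow, mostly ones with a run. Other such genes, among them Rpl10, Rpl22, Rpl23 and Rpl36a, held no run, so the windows do not reflect the share among members. Capitals mark the C and its pyrimidine run.
Rpl28 (chr7:4792955-4792984, plus strand): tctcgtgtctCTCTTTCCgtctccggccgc
Rplp2 (chr7:141447641-141447670, plus strand): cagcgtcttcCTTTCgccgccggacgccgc
Rpl14 (chr9:120571507-120571536, plus strand): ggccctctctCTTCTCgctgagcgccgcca
Rpl15 (chr14:18270967-18270996, minus strand): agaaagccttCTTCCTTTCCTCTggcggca
Rps6 (chr4:86857348-86857377, minus strand): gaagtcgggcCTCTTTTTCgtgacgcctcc
Rps27 (chr3:90213629-90213658, minus strand): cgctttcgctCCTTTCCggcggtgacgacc
Rpl7a (chr2:26910797-26910826, plus strand): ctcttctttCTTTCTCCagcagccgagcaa
Rpsa (chr9:120127756-120127785, plus strand): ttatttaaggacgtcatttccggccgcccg
Rplp0 (chr5:115559457-115559486, plus strand): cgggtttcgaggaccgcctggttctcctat

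In the last pair no run was found by these letters in this window. In LKO against WT on the ethanol diet, the median difference was −0.67 (log2 of FPKM + 1) over the 28 tested members with a run and −0.68 over the 28 tested members without one. For ethanol against control in WT the medians were 0.42 and 0.44. Without WT ethanol library 2 they were −0.467 and −0.491 in the former comparison and 0.277 and 0.282 in the latter. These are descriptions over genes, which are not replicates.

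Ribosomal protein genes were among the high transcripts of these livers, but their levels per length spread widely. Over the 15 libraries other than WT ethanol library 2, the median of the members' median levels was 241.7 FPKM, against 5.34 FPKM for all genes kept. Levels were above 500 FPKM for 5 members, 100 to 500 for 59, 10 to 100 for 10, 1 to 10 for 2 and under 1 for 4. Rplp1, which encodes an acidic protein of the stalk of the large subunit that recruits elongation factors, was highest with a median of 953 FPKM (546.6 to 1294). It was followed by Rps27 at 818, Rpl10 at 633.9, Rpl36 at 526.3 and Rps2 at 511.9 FPKM. The ranges of each pair of neighbours in this order overlapped, except between Rps15a and Rpl35 and between Rpl23a and Rpl24.

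The stalk genes differed among themselves. The median level was 953 FPKM for Rplp1, 278.3 FPKM for Rplp0, which anchors the stalk to the ribosome, and 123.4 FPKM for Rplp2, the partner of Rplp1. Of the duplicated genes, Rps27l was at 295.7 FPKM beside 818 FPKM for Rps27. The others were near or at 0: Rpl3l, known as the copy used in striated muscle, was at 0 to 0.2443 FPKM over the 15 libraries, while Rpl3 was at 116.3 to 233.2 FPKM. Rpl39l, known from testis, had at most 1 read in any library and Rpl10l, also a testis gene, was listed at 0 in all 16, while Rpl39 and Rpl10 had medians of 112.9 and 633.9 FPKM.

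Rpl24, Rpl23a and Rpl35, components of every cytosolic ribosome, were far below the other members apart from Rpl3l, Rpl39l and Rpl10l. Rpl24 (chromosome 16, 55966275 to 55971435) had 0 to 10 reads in a library and a median of 0.486 FPKM. Rpl23a (chromosome 11, 78180932 to 78183584) had a median of 6.2 FPKM and Rpl35 (chromosome 2, 39001580 to 39005624) one of 7.06 FPKM. In GENCODE M21 these 3 were also the members whose exons are most covered by exons of other genes: 47% of the exon bases of Rpl24 by Gm28037 on the same strand and others, 62.3% of those of Rpl23a, mostly by Tlcd1 on the opposite strand, and 66.2% of those of Rpl35, mostly by Wdr38 on the opposite strand. The highest value among the other 77 members was 35.4%, for Rpl13a, and 43 members had no base covered. How the authors counted reads in overlapping exons is not given in the sources used here, and its part in these low values was not tested. Members also have many near-identical processed copies in the genome: the 244 named Rpl and Rps pseudogenes in the table together reached 0.611 to 1.28% of the members' summed FPKM, and how reads that match several places were counted is not given either.

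**Figure D1:**
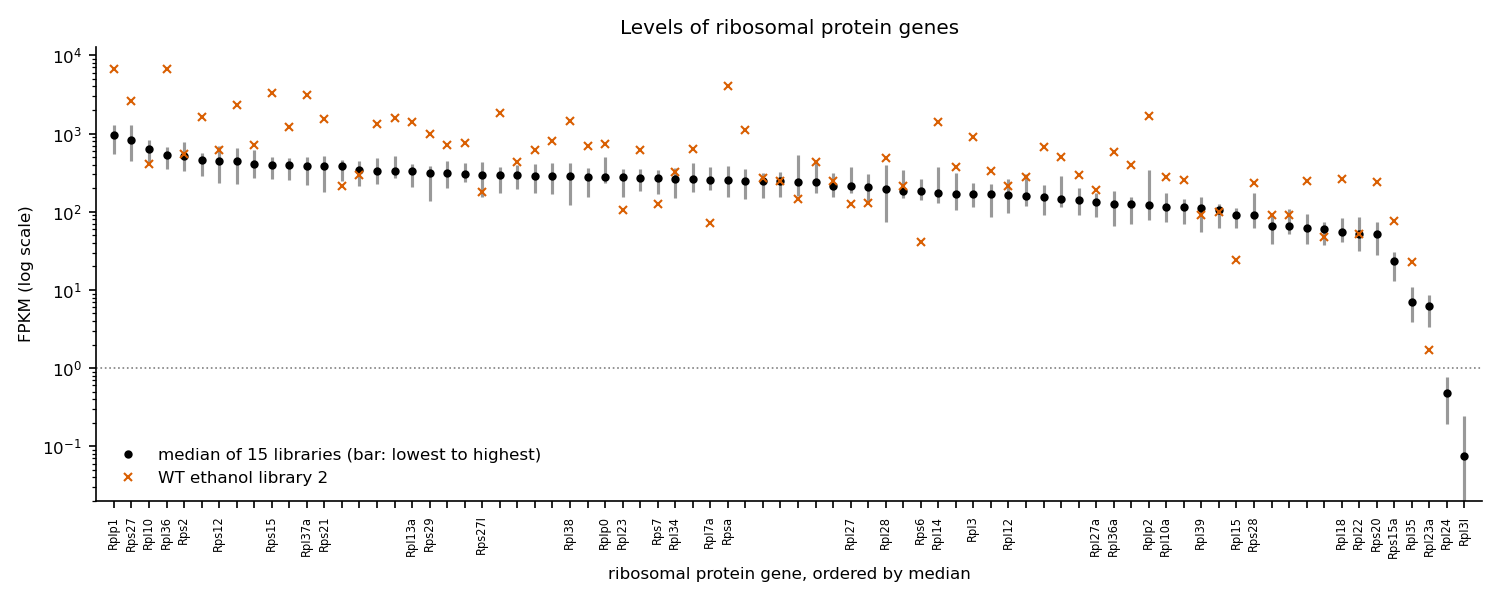
FPKM on a log axis for the 78 ribosomal protein genes with a median above 0, ordered by median. Black points are medians of 15 libraries, bars run from the lowest to the highest of them (to the lower edge of the plot where the lowest is 0), orange crosses are WT ethanol library 2, and the dotted line marks 1 FPKM; most genes lie between 100 and 500 FPKM, and Rpl35, Rpl23a, Rpl24 and Rpl3l lie far below. The labelled genes are named in the text.

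Summed over the 80 genes, the mean level was highest in WT on ethanol, with or without library 2, and lowest in LKO on ethanol, while single libraries of these groups overlapped. The summed level was 21844, 19220, 20100 and 16500 FPKM in WT on the control diet (mean 19416 ± 2229, SD, n = 4). On ethanol the WT libraries had 21426, 64606, 22167 and 26021 FPKM, a mean of 33555 ± 20798 with library 2 and 23205 ± 2467 (n = 3) without it. In LKO the sums were 20351, 20659, 12759 and 15554 FPKM on the control diet (17331 ± 3841, n = 4) and 16255, 22930, 13391 and 14412 FPKM on ethanol (16747 ± 4289, n = 4). WT ethanol overlapped WT control and LKO ethanol, because WT control library 1 and LKO ethanol library 2 lay above WT ethanol library 1, and all 4 LKO control libraries lay below WT ethanol. In a bulk sample, fewer cells of a type and less RNA per cell cannot be told apart. Members took 1.19 to 2.37% of the reads in 15 libraries and 5.5% in WT ethanol library 2.

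The subunits kept a nearly fixed proportion. The sum over large subunit genes was 1.2 to 1.28 times that over small subunit genes in 15 libraries, whatever the group, and 1.66 times in WT ethanol library 2.

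**Figure D2:**
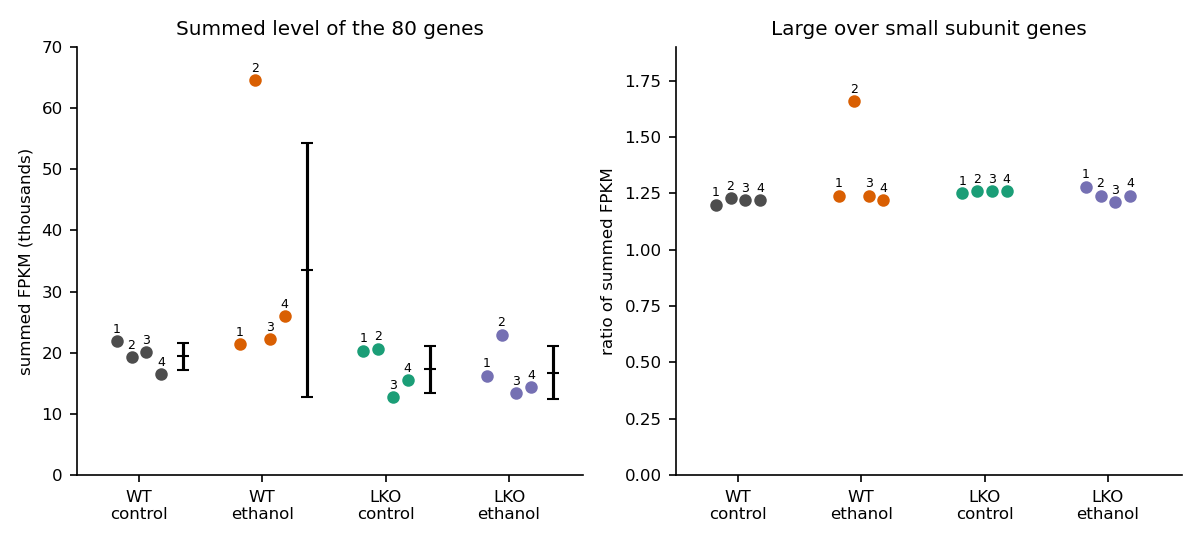
Left, summed FPKM (axis in units of 1000) of the 80 ribosomal protein genes in each library, with the library number above each point and the group mean ± SD beside it; right, the ratio of the summed FPKM of large to small subunit genes. WT ethanol library 2 lies at 64606 FPKM and a ratio of 1.66, while the 15 others lie at 12759 to 26021 FPKM and 1.2 to 1.28.

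Ethanol feeding in WT mice went with higher values of most ribosomal protein genes, but no member passed the test. Of the 76 tested, 64 had a higher mean on ethanol. The median difference was 0.46 on the log2(FPKM + 1) scale, against −0.024 over all 11298 genes tested. By limma with Benjamini-Hochberg adjustment over all genes, 0 members were called at an adjusted p under 0.05, where 4.18% of all genes were called. At an unadjusted p under 0.05 there were 14 members, all higher, while 19.7% of all genes passed that threshold in either direction. This count was 0 with the median of ratios (25.1% of all genes) and 29 with a term for the side of the division of libraries (24.4%). It was 8, 1, 9 and 4 without WT control libraries 1 to 4 in turn, and 30 and 26 without WT ethanol libraries 1 and 3. Without WT ethanol library 2 the median was 0.28 against 0.165 for all genes, 71 members were higher, and 0 members had an unadjusted p under 0.05, against 26.2% of all genes. With the side term and that library left out, 18 members passed this threshold, against 35.7% of all genes. With array weights, which count deviating libraries less, 18 members were called as higher, against 31.3% of all genes, and the members' median of 0.200 was below the 0.229 of all genes. The weights of WT ethanol libraries 1 to 4 were 0.278, 0.0418, 5 and 1.06, so that library 3 counted most.

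The members with the largest differences in this comparison were Rplp2, Rpsa and Rpl14. Rplp2 (chromosome 7, 141447370 to 141451585) measured 95.41, 84.88, 198.8 and 171.4 FPKM in WT control and 102.7, 1683, 265.2 and 338.8 FPKM in WT ethanol. The groups overlapped, since library 1 on ethanol lay below libraries 3 and 4 of the control diet. The difference was 1.45 (SE 0.592, adjusted p = 0.184 by limma), and 0.70 (adjusted p = 0.294 by limma) without library 2. Over all alternatives the adjusted p ran from 0.00577 to 0.482.

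Rpsa (chromosome 9, 120127689 to 120132369) encodes a small subunit protein that was also described as a laminin receptor. It measured 299.9, 262.5, 253.3 and 186.9 FPKM in WT control and 337.7, 4003, 316.3 and 381.7 FPKM in WT ethanol. Each ethanol library lay above each control library, by far the most in library 2. The difference was 1.36 (SE 0.595, adjusted p = 0.215 by limma) and 0.48 (adjusted p = 0.265 by limma) without that library. The alternatives gave adjusted p values of 0.0477 to 0.656.

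Rpl14, a large subunit gene, was at 163.7 to 247.7 FPKM in WT control and at 172.3, 1424, 298.5 and 372.3 FPKM in WT ethanol, a difference of 1.04 (SE 0.452), and of 0.44 (SE 0.259) without library 2. Rplp0 had the smallest adjusted p of the members, 0.181 by limma. It measured 253.4, 284.8, 329.5 and 278.3 FPKM in WT control and 270.1, 740.3, 480.3 and 504 FPKM on ethanol, so that library 1 alone lay inside the control range. Its difference was 0.72 (SE 0.292), and 0.50 (adjusted p = 0.198 by limma) without library 2, in a range of 0.00139 to 0.48 over the alternatives.

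The 3 members with the lowest differences were Rpl7a (−0.39, SE 0.406), Rpl10 (−0.26, SE 0.283) and Rpl15 (−0.247, SE 0.4). All 3 values rested largely on WT ethanol library 2. Rpl15 measured 71.77 to 106.7 FPKM in WT control and 108.4, 23.99, 100.1 and 111.5 FPKM on ethanol. Without library 2 the differences were 0.125 for Rpl7a and 0.28 for Rpl15, and that of Rpl10 was −0.09. Rpl10 measured 406 FPKM in library 2 and 611.4 to 723 FPKM in the other WT ethanol libraries.

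For 5 members the WT groups did not overlap, with all ethanol libraries higher: Rpsa, Rpl10a, Rpl12, Rpl27a and Rps12. Among all genes tested, 5.62% were non-overlapping in that direction. Leaving out WT ethanol library 2 gave 7 such members, against 15.6% of all genes. Rpl10a (chromosome 17, 28328471 to 28331033), a protein of the other stalk of the large subunit, measured 141.3, 115.5, 119.2 and 94.6 FPKM in control and 172.3, 278.8, 146.5 and 161.7 FPKM in ethanol libraries. Its difference was 0.65 (SE 0.285, adjusted p = 0.215 by limma). These 5 were singled out after their values were seen.

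LKO libraries on ethanol had lower mean levels of most ribosomal protein genes than WT libraries on ethanol, again with no member past the adjusted threshold. Of the 76 members, 73 had a lower mean in LKO, and the median difference was −0.71 against −0.031 over all genes. Limma called 0 members at an adjusted p under 0.05, where 0.0797% of all genes were called. At an unadjusted p under 0.05, 43 of the 76 passed, all lower in LKO, against 11.9% of all genes in either direction. The count was 3 with the median of ratios (14.3% of all genes), and 26, 19 and 22 without LKO ethanol libraries 1, 3 and 4. Leaving out WT ethanol library 2, all 76 were lower, the median was −0.47 against −0.227 for all genes, and 25 were lower at an unadjusted p under 0.05, against 14.8% of all genes. With that library left out, the median of ratios gave a median of −0.159 against 0.023 for all genes and 0 members at that threshold (11.2% of all genes in either direction), and the side term gave −0.532 against −0.214 and 67 members (26.5%). Comparisons that use WT ethanol share its libraries, so this one and the one before it are not independent. Members of 1 library are not replicates either. In log2(FPKM + 1) from each gene's median over 15 libraries, the members' median was −0.586 to 0.284 in LKO ethanol libraries. Its mean there was −0.251 ± 0.386 (SD, n = 4). In WT ethanol it was 1.188 in library 2 and 0.119 to 0.422 in the others (0.255 ± 0.154, n = 3). WT control, at −0.295 to 0.239, and LKO ethanol both overlapped WT ethanol. With array weights 32 members were called as lower, against 27.9% of all genes.

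Rps20 (chromosome 4, 3831334 to 3835665) encodes a protein of the head of the small subunit and had the smallest p of the members in this comparison. It measured 60.89, 241.1, 57.22 and 74.72 FPKM in WT and 40.73, 55.84, 27.71 and 31.9 FPKM in LKO, and every LKO library lay below every WT library. The difference was −1.22 (SE 0.396, adjusted p = 0.267 by limma). Without WT ethanol library 2 it was −0.745 (SE 0.264, adjusted p = 0.209 by limma), and the alternatives gave adjusted p values of 0.0232 to 0.613.

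Rps21 and Rpl37a were the other members without overlap in this comparison, and 3 members in all stood beside 1.8% of all genes lower without overlap. The same 3 members, without WT ethanol library 2, stood beside 5.89% of all genes. Rps21 measured 452.9, 1543, 432.7 and 521.4 FPKM in WT and 326.8, 398.4, 211.5 and 258.9 FPKM in LKO (difference −1.11, SE 0.41, and −0.684 without WT ethanol library 2). Rpl37a measured 401.5, 3070, 421.2 and 494.6 FPKM in WT and 290, 384.1, 246.9 and 290.2 FPKM in LKO (difference −1.25, SE 0.485, and −0.548 without that library). For each of these genes LKO library 2 was the closest to the WT range. The 3 genes were singled out after their values were seen.

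The largest differences belonged to Rplp2 (−1.56, SE 0.592, adjusted p = 0.329 by limma), Rpsa (−1.52, SE 0.595, adjusted p = 0.338 by limma) and Rpl14 (−1.28, SE 0.452, adjusted p = 0.306 by limma). In LKO on ethanol Rplp2 measured 79.41, 118.8, 138.3 and 154.5 FPKM, and Rpsa 229.2, 338.7, 173.2 and 175.8 FPKM. Without WT ethanol library 2 the differences shrank to −0.81, −0.64 and −0.675. Rpl15, Rps6 and Rpl7a were the only members with a higher mean of log2 values in LKO, by 0.11, 0.17 and 0.21, and without that library they were lower by −0.42, −0.44 and −0.31.

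**Figure D3:**
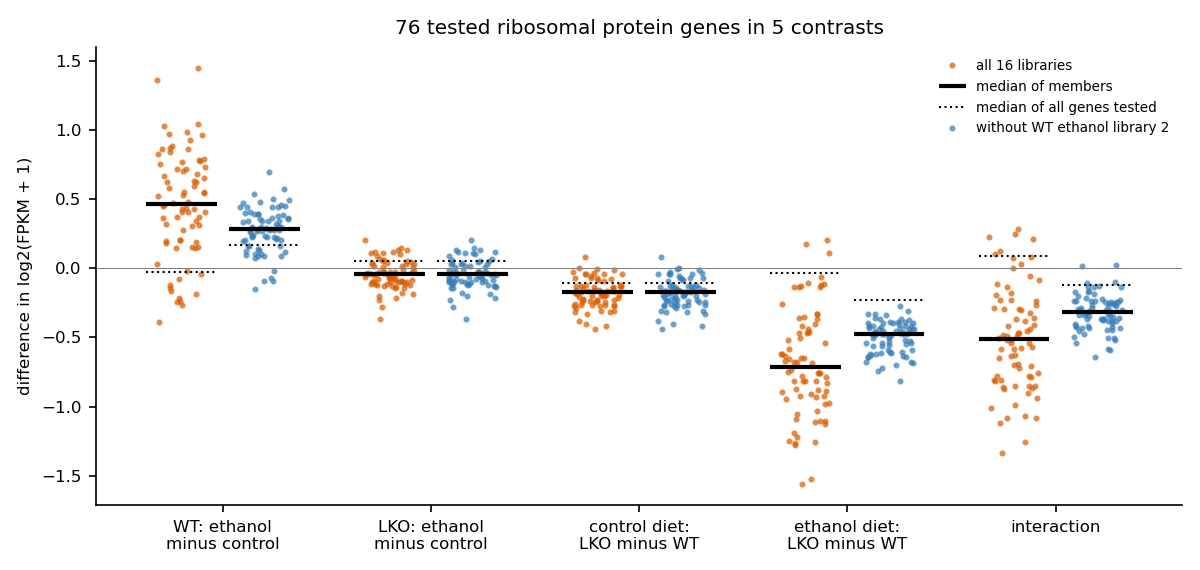
Each point is 1 of the 76 tested ribosomal protein genes, placed by its difference in log2(FPKM + 1) in 5 contrasts, in orange with all 16 libraries and in blue without WT ethanol library 2. Solid bars are medians of the members and dotted bars medians of all genes tested; the members' median in LKO against WT on ethanol is −0.71 with all libraries and −0.47 without library 2.

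In LKO mice no ribosomal protein gene passed the test between the diets, and the sign of the median depended on the libraries and the scaling. The median difference was −0.045 against 0.056 over all genes, and 24 members had a higher and 52 a lower mean. It was −0.215 (73 lower) without LKO ethanol library 2 and 0.055 (54 higher) without LKO ethanol library 3. Leaving out LKO control library 3 gave −0.175 (70 lower), and leaving out LKO control library 2 gave 0.050 (54 higher). Quantile normalization gave 0.025, and array weights gave −0.285 against 0.043 over all genes, with 73 members lower. Limma called 0 members, against 0.425% of all genes, and 0 members had an unadjusted p under 0.05, against 9.19% of all genes. No member's groups were without overlap, where 12.3% of all genes were so in either direction. The lowest differences were those of Rpl22 (−0.37, SE 0.286, adjusted p = 0.818 by limma), Rpl28 (−0.28, SE 0.547) and Rpl10 (−0.23, SE 0.283), and the highest those of Rpl38 (0.21, SE 0.429), Rpl12 (0.14, SE 0.288) and Rps28 (0.135, SE 0.335). Rpl22, whose loss mice are known to survive, measured 70.13, 75.62, 40.89 and 44.7 FPKM on control and 45.67, 63.91, 31.64 and 36.97 FPKM on ethanol diet, with wide overlap.

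On the control diet most members had a lower mean in LKO than in WT, and the size of the difference rested on few libraries. The median difference was −0.175 against −0.103 over all genes, and 75 of 76 members had a lower mean in LKO. Without LKO control library 3 it was −0.036 (56 lower), and with the median of ratios −0.026 (49 lower). Leaving out LKO control library 1 or 2 gave −0.282 and −0.293, and leaving out WT control library 4 gave −0.288. With array weights it was −0.063 against −0.104 over all genes. Limma called 0 members, against 0.00885% of all genes, and 0 members had an unadjusted p under 0.05, against 3.45% of all genes. No member was without overlap between the groups, against 9.25% of all genes in either direction. The lowest were Rps27 (−0.436, SE 0.386), Rps29 (−0.42, SE 0.382) and Rpl36a (−0.40, SE 0.403). Rps27, a zinc-finger protein of the small subunit, measured 1298, 961.4, 818 and 762.4 FPKM in WT and 934.5, 910.7, 450 and 605.2 FPKM in LKO. The 2 lower LKO libraries were numbers 3 and 4, which stand together in the division of libraries. At the other end Rpl18, with 0.079 (SE 0.386), was the only member higher in LKO, and Rplp0 and Rpl27 differed by −0.002 and −0.001.

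Whether ethanol acted differently in the genotypes is asked by the interaction, which subtracts the WT difference between diets from the LKO one. The median over members was −0.51 against 0.089 over all genes, and 67 members were below 0. Without WT ethanol library 2 it was −0.315 against −0.122 over all genes, with 74 members below 0. Limma called 0 members at an adjusted p under 0.05, against 0% of all genes, and 0 members passed an unadjusted p under 0.05, against 3.2% of all genes. This unadjusted count was 10 without WT ethanol library 1 (971 of 11237 genes) and 2 without LKO ethanol library 2 (553 of 11212). With array weights it was 24 (2547 of 11298 genes), and all these members were lower. The largest values were those of Rplp2 (−1.34, SE 0.837), Rpsa (−1.25, SE 0.841) and Rpl36 (−1.12, SE 0.801), each with an adjusted p of 0.927 by limma. Without WT ethanol library 2 they were −0.59, −0.37 and −0.249. Rpl15, Rpl7a and Rpl23 had the highest values, 0.28, 0.25 and 0.23, and turned to −0.247, −0.26 and −0.17 without that library. With array weights, which count deviating libraries less, 2 members were called as lower (Rpl18 and Rplp0), against 3.81% of all genes.

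WT ethanol library 2 ordered the ribosomal protein genes unlike the rest. Of the 76 tested members, 48 lay above all 15 other libraries, against 13.6% of all genes, 11 lay below all of them, against 52.3% of all genes, and 17 lay within their range. Relative to the median of the 15 others, the members ranged from 0.223 (Rps6) to 15.8 (Rpsa), with a median of 2.28. At least 8 times the median were Rpsa, Rplp2 (13.6), Rpl36 (12.6), Rps15 (8.3) and Rpl14 (8.27).

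At 0.5 of the median or less were 6 members: Rps6, Rpl15 (0.26), Rpl7a (0.275), Rpl23a (0.277), Rpl23 (0.384) and Rps7 (0.469). Rps6, the small subunit protein phosphorylated by S6 kinase, measured 40.87 FPKM there and 140.4 to 261.2 FPKM in the others. Rpl36 measured 6619 FPKM there and 351.9 to 677.3 FPKM elsewhere. Rpsa and Rps6, at the opposite ends of this order, encode proteins of the same subunit. The standard deviation over members of the log2 deviation from each gene's median was 1.36 in this library and 0.145 to 0.315 in the others. The members' deviation in it went with the GC content of their transcripts with a Spearman rho of 0.43 over 76 genes (0.27 over 11246 genes), and with length at −0.13, where all points share this library. The summed level of the 5 erythroid markers was 2160 FPKM there and 100.3 to 286.1 FPKM in the others. The part of these in the members' values was not tested.

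**Figure D4:**
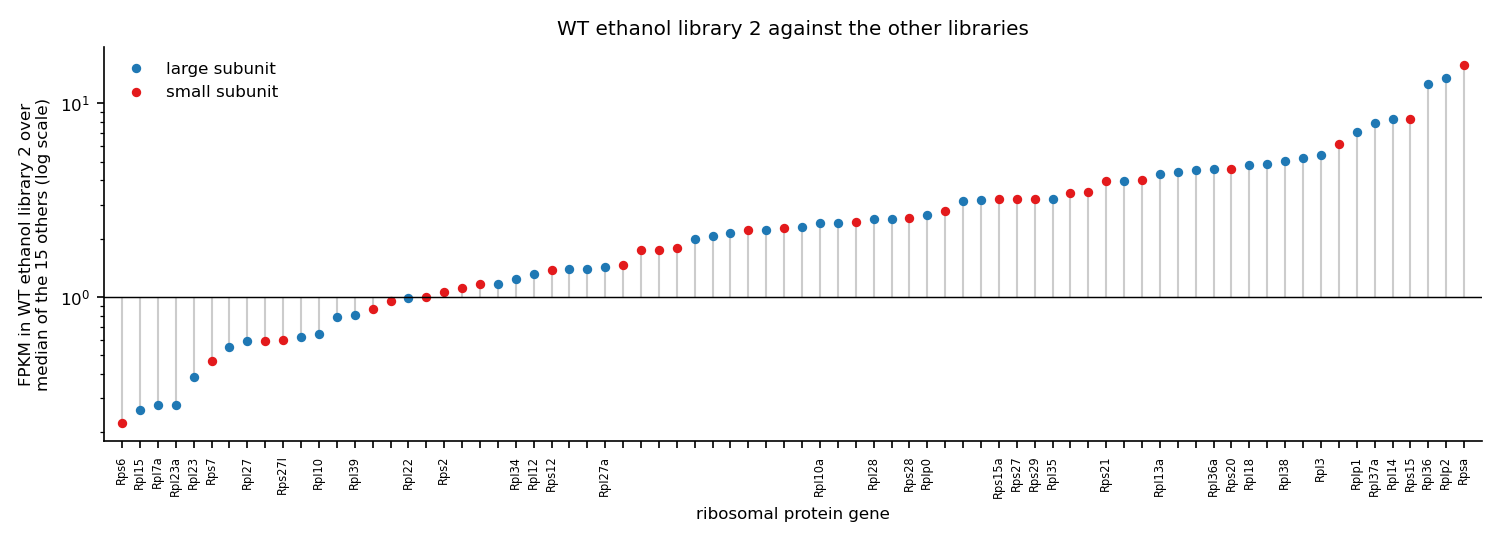
Ratio of the FPKM in WT ethanol library 2 to the median of the 15 other libraries, on a log axis, for the 76 tested ribosomal protein genes in order of the ratio, with large subunit genes in blue and small subunit genes in red. The ratio runs from 0.223 for Rps6 to 15.8 for Rpsa, and both subunits occur along the whole range. The labelled genes are named in the text.

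Over all groups, most ribosomal protein genes were lower in libraries 3 and 4 than in libraries 1 and 2. Over the 15 libraries, 7 numbered 1 or 2 and 8 numbered 3 or 4, and with each group centred, 61 of 76 members were lower in libraries 3 and 4 and 15 were higher. The median difference was −0.448 against 0.066 over all genes. In each of the 4 groups 34 members were lower on average in libraries 3 and 4, against 15% of all genes, and 6 were higher in each, against 28.5% of all genes. By group, the members' median was −0.32 in WT control, 0.036 in WT ethanol, −0.65 in LKO control and −0.63 in LKO ethanol, against 0.031, 0.377, 0.062 and −0.09 over all genes. In WT ethanol 34 members were lower and 42 higher.

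Rpl28 and Rplp2 ran the other way. Rpl28 (chromosome 7, 4792874 to 4795066), which encodes a large subunit protein with no counterpart in bakers' yeast, measured 93.33, 111.7, 341.3 and 304.5 FPKM in WT control and 87.13, 487.5, 325.3 and 393.7 FPKM in WT ethanol. In LKO it measured 131, 136.5, 196.8 and 287.9 FPKM on control and 73.16, 142.7, 192.5 and 229.6 FPKM on ethanol diet. Outside WT ethanol library 2, libraries 1 and 2 lay at 73.16 to 142.7 FPKM and libraries 3 and 4 at 192.5 to 393.7 FPKM, with no overlap whatever the genotype or diet.

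Rplp2 was the only other member with no overlap, at 79.41 to 118.8 FPKM in libraries 1 and 2 and 123.4 to 338.8 FPKM in libraries 3 and 4. These 2 members stood beside 4.26% of all genes higher without overlap in libraries 3 and 4. In the reverse direction there were 0 members and 1.74% of all genes. The member lowest in libraries 3 and 4 was Rpl34, with a centred difference of −0.66, and that of Rpl28 was 1.30. Across the 76 members, the difference went with GC content at a Spearman rho of 0.26 and with length at 0.01. Over 11246 genes these were 0.44 and 0.30, a description over genes of the same libraries.

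**Figure D5:**
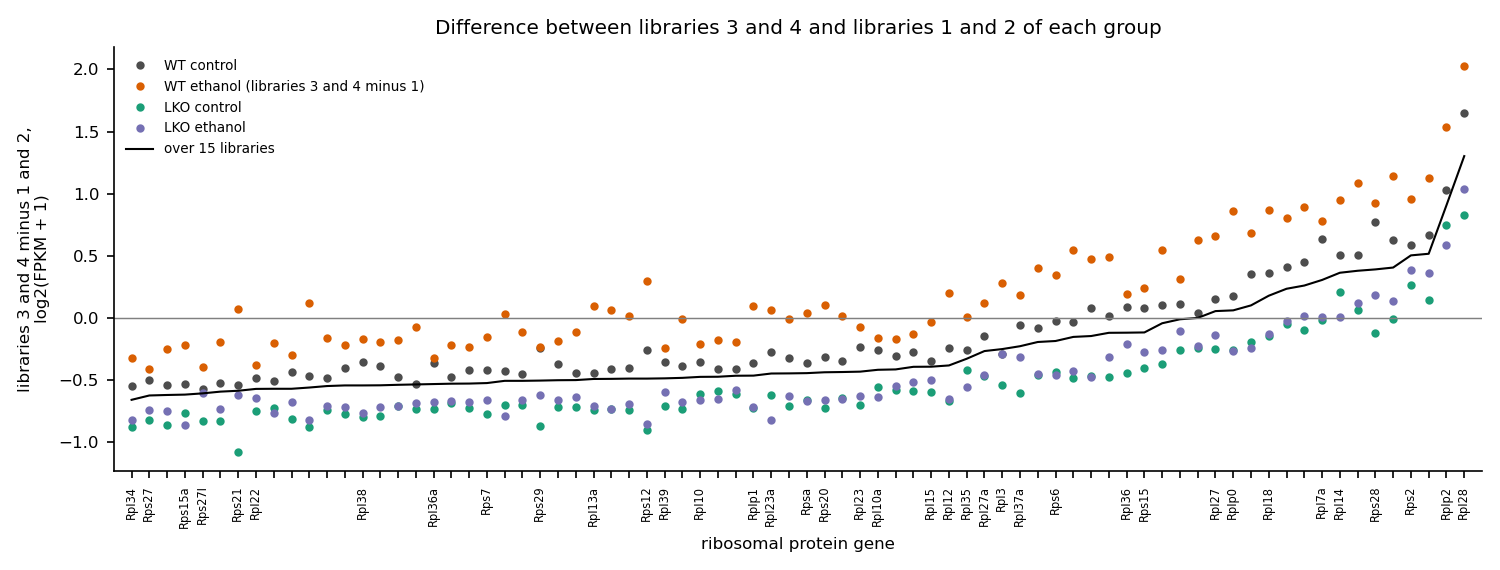
Difference in log2(FPKM + 1) between libraries 3 and 4 and libraries 1 and 2 of each group, for the 76 tested members in order of the difference over 15 libraries (black line), with 1 coloured point per group; WT ethanol library 2 is left out. Most members lie below 0, and Rplp2 and Rpl28 at the right lie above 0 in all 4 groups. The labelled genes are named in the text.

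The genotype difference was larger among libraries 3 and 4. On ethanol the members' median in LKO against WT was −0.77 there (2 against 2 libraries, 76 of 76 lower, median of all genes −0.397), and −0.17 among libraries 1 and 2 with 1 WT library left (61 lower, all genes 0.071). On the control diet it was −0.356 among libraries 3 and 4 (all genes −0.09) and −0.028 among libraries 1 and 2 (all genes −0.113). For ethanol against control in WT the medians were 0.43 (all genes 0.274) and 0.076 (all genes −0.065) for libraries 3 and 4 and libraries 1 and 2, and in LKO −0.036 and −0.086. None of these was tested, with at most 2 libraries a group.

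Among the lists with at least 5 tested markers, the stellate cell median had the members' direction in both contrasts of WT ethanol, with and without library 2. The erythroid median did so only with library 2 included, and the macrophage median only without it. All 6 markers of Kupffer cells and macrophages were detected by the same rule. Their summed level was 88.08 to 270.1 FPKM in WT control, 93.16 to 288.9 in WT ethanol, 86.07 to 305.6 in LKO control and 51.88 to 298.1 in LKO ethanol. Library 2 was the highest of LKO ethanol in ribosomal protein genes and in the sums of macrophage (298.1 FPKM), endothelial (87.44) and stellate cell markers (118.8). In WT ethanol, library 2 was highest in ribosomal protein genes and lowest in these 3 sums, at 93.16, 12.08 and 16.32 FPKM. For ethanol in WT the median of the macrophage list was −0.125, and 0.334 without WT ethanol library 2, where 5 of 6 markers were higher. For LKO against WT on ethanol it was −0.484, and −0.756 without that library, with 6 of 6 lower. The 6 stellate cell markers had medians of 0.24 and −0.574 in these contrasts, and of 0.751 and −0.721 without library 2. The 5 erythroid markers had medians of 0.668 and −0.387, and of −0.137 and 0.418 without it. The hepatocyte list had medians of −0.432 and 0.458, and of 0.064 and 0.144 without it, and the 5 endothelial markers −0.525 and 0.252, and −0.351 and −0.076 without it.

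Among these 5 lists 2 markers were called for ethanol in WT, where 4.18% of all genes were called, and 0 for LKO against WT on ethanol, where 0.0797% were. Marco, a scavenger receptor of macrophages, rose in WT on ethanol from 5.73 to 12.83 FPKM in control libraries to 17.96 to 49.56 FPKM (difference 1.71, SE 0.439, adjusted p = 0.0379 by limma). Des, which encodes the filament protein desmin of stellate cells, differed by 0.935 (SE 0.228, adjusted p = 0.0296 by limma). Its levels were low, at 0.866 to 1.45 FPKM in WT control and 1.58 to 5.08 FPKM in WT ethanol. Without WT ethanol library 2 its difference was 0.749 (adjusted p = 0.0324 by limma). Lyve1, an endothelial marker, was also called as higher when WT ethanol library 2 was left out. Lymphocyte and neutrophil markers were low, with sums of at most 6.095 and 18.86 FPKM outside WT ethanol library 2. Ms4a1 and Ly6g were never above 0.5 FPKM. Cholangiocyte markers summed to 1.15 to 4.76 FPKM in 15 libraries and to 8.624 FPKM in WT ethanol library 2. Of these lists, 1 lymphocyte, 2 neutrophil and 1 cholangiocyte markers were tested. Their medians in the same contrasts were 0.229 and −0.571, 0.74 and 0.61, and 0.771 and −0.063. Without library 2 these were 0.083 and −0.425, 0.65 and 0.701, and 0.661 and 0.047. The part of these cells in the members' values was not tested.

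In other genes of the translation machinery, calls are to be read against the shares over all genes, 4.18% for ethanol in WT and 0.0797% for LKO against WT on ethanol. Of 7 ribosomal protein genes whose symbols fall outside the naming rule, such as Fau, Rack1 and Rps3a1, none was called in any of the 5 contrasts. Their medians were 0.29 for ethanol in WT and −0.47 for LKO against WT on ethanol. For Rack1 the adjusted p by limma ran over the alternatives from 0.0141 to 0.676 and from 0.0064 to 0.781 in these contrasts. Fau differed by 0.927 and −1.002, and by 0.215 and −0.290 without WT ethanol library 2. The 19 translation factors with TOP messengers had 0 calls and medians of −0.047 and −0.06 in the same contrasts. Both medians include WT ethanol library 2, where the list's median deviation from each gene's median over 15 libraries was −0.875. In WT ethanol libraries 1, 3 and 4 it was −0.193, 0.300 and 0.360. The 76 tested mitochondrial ribosomal proteins also had 0 calls, with medians of 0.1 and −0.12.

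Among 43 tested genes of ribosome biogenesis and RNA polymerase I, 1 was called for ethanol in WT and 0 in the other contrasts. This was Polr1e, a subunit of RNA polymerase I, which transcribes ribosomal RNA. It rose from 1.17 ± 0.082 FPKM to 2.74 ± 0.383 (SD, n = 4; difference 0.78, SE 0.2, adjusted p = 0.0371 by limma), with adjusted p values of 0.00237 to 0.107 over the alternatives. The list's median was 0.18 for ethanol in WT and 0.40 for ethanol in LKO, against −0.024 and 0.056 over all genes. The WT value includes WT ethanol library 2, where the list's median deviation from each gene's median over 15 libraries was −0.676. In WT ethanol libraries 1, 3 and 4 it was 0.243, 0.317 and 0.453, and in WT control −0.098 to −0.006.

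Of 21 genes of mTORC1 signalling, TOP control and Myc, 2 rose with ethanol in WT and 0 were called in the other contrasts. Eif4ebp1, a translation repressor that mTORC1 inactivates, rose from 45.94 ± 1.2 to 113.8 ± 21.97 FPKM (SD, n = 4; adjusted p = 0.0489 by limma), and Castor1, an arginine sensor that restrains mTORC1, rose from 0.761 ± 0.21 to 2.23 ± 0.545 FPKM (adjusted p = 0.0121 by limma). Over the alternatives the adjusted p ran from 0.00395 to 0.12 for Eif4ebp1 and from 0.000233 to 0.0494 for Castor1. Larp1 and Mtor differed by −0.094 (SE 0.408) and 0.089 (SE 0.346) in that contrast with all libraries. Without WT ethanol library 2 they differed by 0.102 and 0.419 (adjusted p = 0.904 and 0.391 by limma). The adjusted p by limma ran over the alternatives from 0.146 to 0.991 for Larp1 and from 0.0143 to 0.987 for Mtor. Myc, an activator of ribosome biogenesis, differed by 1.26 (SE 0.441, adjusted p = 0.12 by limma) with all libraries and by 1.52 (adjusted p = 0.0456 by limma) without WT ethanol library 2, in a range of 0.000391 to 0.261. For LKO against WT on ethanol the adjusted p by limma ran over the alternatives from 0.0218 to 0.705 for Castor1 (difference −0.577) and from 0.0475 to 0.993 for Myc (−0.192).

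Unused ribosomal proteins can bind Mdm2 and stabilise the tumour suppressor p53, so p53 target genes were read beside them. Of 7 genes, only Cdkn1a, which encodes a cell cycle inhibitor, was called, in contrasts where 4.18% (WT) and 0.425% (LKO) of all genes were called. It rose with ethanol in WT from 8.18 ± 10.94 to 56.29 ± 16.14 FPKM (difference 3.24, SE 0.631, adjusted p = 0.0107 by limma) and in LKO from 2.01 ± 1.16 to 31.63 ± 20.46 FPKM (difference 3.19, SE 0.631, adjusted p = 0.033 by limma), with n = 4 and SD throughout. The alternatives gave adjusted p values of 0.000384 to 0.0458 in WT and 0.00562 to 0.166 in LKO. The interaction for Cdkn1a was −0.055 (SE 0.892, adjusted p = 0.992 by limma).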

How the data were processed

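The authors deposited 1 table of FPKM values for 35275 gene IDs and 16 libraries of total liver RNA. Per the submitters' processing notes, fastp, STAR 2.6.1, HTSeq and DESeq2 were used with mouse build mm10. Annotation, strandedness, gene lengths and the counting of reads with several matches are not given in the sources used here. Whole reads were worked out from the steps of the FPKM values: among 20520 genes above 0 in at least 4 libraries, 100% had all values within 0.1 of a whole read. Symbols and positions came from GENCODE M21 (GRCm38).

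Genes with FPKM of at least 1 in at least 4 libraries (11298) were tested as log2(FPKM + 1), a scale that understates changes of low genes, with limma 3.58.1 in R 4.3.3 (group means, eBayes with trend, two-sided, Benjamini-Hochberg over all tested genes, called at adjusted p under 0.05). On simulated reads for 11298 genes, in WT ethanol against control, the fit called 98.5% of the 200 genes given a 4-fold change. Of its calls, 6.64% were false. The simulated reads were drawn around WT control means with 1 dispersion for all genes, no deviating library and no division of libraries. These shares therefore say nothing about power or false calls with a library such as WT ethanol library 2. The members and gene lists were chosen with earlier results of these data known. Named members were, for each contrast without calls, the 3 with the largest rise and fall, then the extremes by level, the duplicated genes, the stalk genes and Rpsa. From related lists, called genes and Larp1, Myc and Mtor were named. Alternatives changed the pseudocount, filter, scaling, weights, trend, a term for the side of the division of libraries, and the libraries included. Of these, voom on recovered reads and the scalings combined with leaving out WT ethanol library 2 were chosen after seeing the data. Not every member is named in the text, and 1 gene was left out of the related lists.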

Additional observations from a re-analysis of the deposited data

Results flagged for a closer look

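Within groups of 4, a library was marked when its gap to the nearest other library, divided by the group's range, exceeded Dixon's critical value for that number. Chance marks about 1 in 20 groups. Over all 304 combinations of a tested member and a group, 35 were marked, 28 of them by WT ethanol library 2, 5 by LKO ethanol library 2, and 1 each by WT control library 4 and WT ethanol library 1.

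The summed level of the 80 genes in WT ethanol library 2, 64606 FPKM, was marked. Among the members named in the report or by its rule, the same library was marked as high for the large subunit genes Rpl3 (904.8 FPKM), Rpl13a (1408), Rpl14 (1424), Rpl36 (6619), Rpl36a (573.8), Rpl37a (3070), Rpl38 (1446), Rpl41 (2302), Rplp1 (6768) and Rplp2 (1683). Among the small subunit genes so named it was high for Rps4x (683.1), Rps15 (3268), Rps15a (75.72), Rps20 (241.1), Rps21 (1543), Rps27 (2618), Rps29 (992.4) and Rpsa (4003). It was marked as low for Rpl15 (23.99). LKO ethanol library 2 was marked as high for Rplp0 (400.3 FPKM against 230.7 to 257.1 in the others of its group) and Rps6 (253 against 140.9 to 152.8). WT control library 4 was marked as low for Rpl12 (114.9 against 164.6 to 171.9), and WT ethanol library 1 as high for Rpl22 (68.1 against 51.74 to 52.64).

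Rpl39l was marked at 0.05207 FPKM in WT control library 2 and at 0.05889 FPKM in LKO ethanol library 2, each standing for 1 read, and Rpl3l at 0.08809 FPKM in LKO ethanol library 4. The other libraries of these groups were at 0.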

How the results depend on the processing

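No paired analysis was made. The labels state no pairing of mice between groups, and the library numbers used here only follow the order of the records. The titles carry a number for each library, neighbouring for some libraries of the control and ethanol diets, whose meaning is not given. Over 29 alternatives, the count of called members stayed at 0 except as follows. For ethanol in WT, array weights called 18 members (31.3% of all genes called higher), the side term without WT ethanol library 2 called 2, Rpl10a and Rpsa (15%), and leaving out 1 library gave 0 to 4, the 4 (Rpl14, Rplp0, Rplp2, Rps10) without WT ethanol library 1 (5.86%). For LKO against WT on ethanol these were 32 (27.9% of all genes called lower), 1 (Rpl10a, 1.28%) and 0 to 4, the same 4 genes without that library (2.81%). For the interaction, array weights called 2, Rpl18 and Rplp0 (3.81%). By more than the spread between libraries, the members' medians moved with the median of ratios and WT ethanol library 2 left out, to 0.051 for ethanol in WT and −0.159 for LKO against WT on ethanol. Smaller moves include array weights, with 0.200 for ethanol in WT and −0.285 in LKO. For ethanol in LKO the median also changed sign, from −0.045 to 0.025 with quantile normalization and to a range of −0.215 to 0.055 when 1 library was left out, and for LKO against WT on control it ranged from −0.293 without LKO control library 2 to −0.036 without LKO control library 3. With WT ethanol library 2 left out, the median of ratios shifted the median of all genes in LKO against WT on ethanol from −0.227 to 0.023. The share of member promoters with a pyrimidine run was 83.3% when the C could lie within 20 bases (53.3% of all genes) and 33.3% with at least 7 further pyrimidines. The causes were not tested.

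None of the single members that changed direction was called with the settings of the report. With array weights they were Rpl7a at 0.383 and Rpl15 at 0.168 for ethanol in WT; Rpl12 at −0.152 and Rpl38 at −0.084 for ethanol in LKO; Rplp0 at 0.08 and Rpl27 at 0.07 for LKO against WT on control; Rpl15 at −0.431, Rps6 at −0.572 and Rpl7a at −0.553 on ethanol; and Rpl23 at −0.266, Rpl7a at −0.594 and Rpl15 at −0.367 for the interaction. With the side term and without WT ethanol library 2, Rpl7a was at 0.073 and Rpl15 at 0.346 for ethanol in WT, Rpl15 at −0.483, Rps6 at −0.469 and Rpl7a at −0.255 for LKO against WT on ethanol, and Rpl23 at −0.241, Rpl7a at −0.211 and Rpl15 at −0.314 for the interaction. Without that library and with quantile normalization, equal sums and the median of ratios in turn, Rpl15 was at 0.271, 0.289 and 0.048 for ethanol in WT and at −0.368, −0.452 and −0.105 for LKO against WT on ethanol, Rps6 at −0.393, −0.473 and −0.123 there, and for the interaction Rpl23 at −0.046, −0.157 and −0.016, Rpl7a at −0.194, −0.253 and −0.111, and Rpl15 at −0.18, −0.237 and −0.096. With the former 2 scalings Rpl7a was at 0.132 and 0.135 for ethanol in WT and at −0.238 and −0.343 for LKO against WT on ethanol. For LKO against WT on control, Rplp0 was at 0.008 with quantile normalization and 0.148 with the median of ratios, or 0.01 and 0.161 without WT ethanol library 2, and Rpl27 at 0.149 and 0.162 with the median of ratios.

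Leaving out 1 library in turn, for ethanol in WT, Rpl7a ranged from −0.659 to 0.125 and Rpl15 from −0.445 to 0.279. For ethanol in LKO, Rpl28 ranged from −0.496 to 0.05, Rpl12 from −0.107 to 0.271 and Rpl38 from −0.067 to 0.364. For LKO against WT on control, Rplp0 ranged from −0.059 to 0.067, Rpl27 from −0.077 to 0.085 and Rpl18 from −0.006 to 0.187. On ethanol, Rpl15 ranged from −0.416 to 0.307, Rps6 from −0.437 to 0.445 and Rpl7a from −0.307 to 0.476. For the interaction, Rpl23 ranged from −0.167 to 0.408, Rpl7a from −0.263 to 0.52 and Rpl15 from −0.247 to 0.477. Rpl24, Rpl3l, Rpl39l and Rpl10l had at most 10 reads in a library, too few to compare.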
